A study of Mus musculus with 8 samples.

Results

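Desmosomes and hemidesmosomes are the 2 keratin-anchoring junctions of squamous epithelium, and 9 of their genes were followed across 8 mouse tumours: Dsp, Jup, Pkp1, Dsg3 and Dsc3 of the desmosome, and Itga6, Itgb4, Lama3 and Lamb3 of the hemidesmosome and its laminin. The 9 genes were chosen by name, with earlier results of these data known, and matched by the symbol in the gene identifier. Counts over them, set beside the share of all genes, are therefore descriptions. All 9 were found among the 55450 genes of the count table, once each, and all 9 passed the filter on low counts. The tumours were grown from MOC1, a single mouse oral squamous cell carcinoma line, in the flank of C57BL/6 mice, although the labels name the tissue as an oral tongue carcinoma. Every animal received anti-PD-1, an antibody against an inhibitory receptor of T cells, for 32 days together with antisense oligonucleotides (ASOs), short nucleic acids that direct the loss of a matching transcript. The control arm received control ASOs plus anti-PD-1 (3 tumours, numbered 1, 2 and 3). The other arm received Smyd3 ASOs, directed at the transcript of the lysine methyltransferase SMYD3, plus anti-PD-1 (5 tumours). Of these 5, the labels mark 2 as responders (numbers 1 and 3), 2 as non-responders (unnumbered, called 1 and 2 here in the order listed) and leave 1 without a mark (number 2). Response was an outcome within the arm and was not assigned. No group without anti-PD-1 and no response mark for a control tumour was analysed here. The labels do not state that the tumours came from separate animals, so p-values measure the spread between these tumours.

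A desmosome joins 2 neighbouring cells. Its desmosomal cadherins, desmogleins and desmocollins, meet across the gap, and inside the cell the armadillo proteins plakoglobin and plakophilin link their tails to desmoplakin, which holds the keratin filaments. A hemidesmosome fixes a basal cell to the basement membrane: integrin α6β4 spans the membrane, binds laminin-332 outside and is tied to keratin by plectin inside. Lama3 and Lamb3 encode the α3 and β3 chains of laminin-332. Squamous carcinomas keep many of these proteins from their tissue of origin.

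Expected counts per library summed to between 22103853 and 27258700. The members were deeply covered: the lowest member value was 2277 reads, for Dsc3 in control 2, where counting error alone is 2.1%, and the highest was 113641 reads, for Itgb4 in the same tumour. Smyd3, the targeted gene, stood at 10.7, 11.9 and 10.6 CPM (read counts scaled to library size, with TMM normalisation for composition) in the controls, at 8.68 and 4.38 in responders 1 and 3, at 4.58 in the unmarked tumour and at 9.26 and 4.88 in the non-responders. Every Smyd3 ASO tumour was thus below every control, with a log2 fold change of −0.80 (SE 0.29), and the edgeR quasi-likelihood test did not pass the 5% false discovery rate (FDR 0.246). Skeletal muscle markers separated the arms in the opposite direction. The summed level of 10 muscle genes was 43.7 to 101 CPM in controls and 656 to 10894 CPM in Smyd3 ASO tumours.

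The bases just before the transcription start are shown for 3 of the 9 members, Dsp, Jup and Lamb3. They come from RefSeq entries (GRCm38.p6, the assembly also called mm10). These 3 are shown because a sequence was found for them among the members looked up, and their expression played no part in the choice. Not all 9 members were looked up, so a member without a window here may still have an entry. Each run ends at the base before the start, and the capitals mark matches to the GC box GGGCGG, read on either strand, and in Dsp also a p63 half-site, the short element bound by the epithelial master regulator p63.
Dsp, chr13:38151044-38151293, plus strand: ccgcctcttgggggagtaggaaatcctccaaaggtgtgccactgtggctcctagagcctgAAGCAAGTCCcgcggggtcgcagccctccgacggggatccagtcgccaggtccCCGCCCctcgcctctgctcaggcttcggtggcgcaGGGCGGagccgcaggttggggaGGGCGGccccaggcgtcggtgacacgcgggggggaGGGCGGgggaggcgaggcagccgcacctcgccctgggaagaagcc
Jup, chr11:100397791-100398040, minus strand: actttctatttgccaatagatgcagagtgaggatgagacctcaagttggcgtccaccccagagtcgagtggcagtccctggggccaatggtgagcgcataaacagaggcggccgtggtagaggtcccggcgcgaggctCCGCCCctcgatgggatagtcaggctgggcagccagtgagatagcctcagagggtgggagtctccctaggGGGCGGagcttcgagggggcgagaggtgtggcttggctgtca
Lamb3, chr1:193301744-193301993, plus strand: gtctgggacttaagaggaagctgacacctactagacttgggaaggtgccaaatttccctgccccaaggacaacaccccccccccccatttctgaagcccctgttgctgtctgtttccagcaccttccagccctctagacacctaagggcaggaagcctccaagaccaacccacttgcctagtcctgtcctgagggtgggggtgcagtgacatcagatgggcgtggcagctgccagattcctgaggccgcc
Dsp held 4 GC boxes, the nearest from −45 to −40 relative to the start, and Jup held 2, the nearest from −42 to −37. The Lamb3 window held none, and the window of a second RefSeq start of Lamb3 is not shown. A GC box was present in 32.7% of the 32851 mouse promoter windows of this length. The p63 half-site of Dsp lay from −190 to −181 and reads AAGCAAGTCC, and such a match occurred in 7.13% of the windows. None of the 3 windows matched AP-1 (TGANTCA, 6.75% of windows), the Grainyhead-like element (AACNGGTT, 1.79%) or the TATA box (TATAAA, 12.4%). Both strands were searched for each motif. The GC content was 72.4% in Dsp, 62% in Jup and 58.8% in Lamb3. The part of these elements in the values of the members was not tested.

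Per kilobase of exon, Itgb4 was the most abundant member in the controls, at 506 ± 199 CPM per kb (SD, n = 3). Pkp1 followed at 274 ± 30.3, and then Dsp at 178 ± 5.62 and Jup at 174 ± 24.1, which did not differ beyond their spread. Dsg3 (122 ± 24.2), Lamb3 (122 ± 55.6) and Itga6 (107 ± 23.6 CPM per kb) formed a middle group with overlapping spreads. Lama3 (58.9 ± 26.4) and Dsc3 (43.2 ± 25.7 CPM per kb) were lowest, and their spreads also overlapped. The 5 Smyd3 ASO tumours began with the same members, Itgb4 at 428 ± 123 and Pkp1 at 178 ± 43.6 CPM per kb (SD, n = 5), and ended with Dsc3 at 39.5 ± 23.3 and Lama3 at 35.9 ± 12.7. The members differed in how tightly the controls agreed. The SD was 3.15% of the mean for Dsp and 11.1% for Pkp1, but 44.8% for Lama3, 45.8% for Lamb3 and 59.6% for Dsc3.

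Transcripts of the plaque proteins were lowest in the responders, and non-responder 2 was also below all 3 controls for each of them. Desmoplakin, the keratin-binding end of the plaque, is encoded by Dsp (chr13:38151294-38198577, plus strand). Dsp stood at 1781, 1676 and 1707 CPM in controls 1 to 3, at 1083 and 914 in responders 1 and 3, at 1138 in the unmarked tumour and at 1804 and 1381 in the non-responders. The 3 controls lay within a narrow band that both responders, the unmarked tumour and non-responder 2 (80.2% of the control mean) fell under, while non-responder 1 exceeded it. Plakophilin 1, encoded by Pkp1 (chr1:135871395-135919207, minus strand), strengthens the plaque and clusters desmoplakin in stratified epithelia. Pkp1 stood at 1483, 1447 and 1203 CPM in the controls, 717 and 665 in the responders, 898 in the unmarked tumour and 1212 and 979 in the non-responders. The responders were at 52.1% and 48.3% of the control mean, and non-responder 1 alone of the Smyd3 ASO tumours reached into the control range. Plakoglobin, encoded by Jup (chr11:100368958-100397763, minus strand), serves both desmosomes and adherens junctions. Jup moved over a smaller range: 1299, 1051 and 1014 CPM in the controls, 812 and 773 in the responders, 932 in the unmarked tumour and 1075 and 996 in the non-responders.

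**Figure D1:**
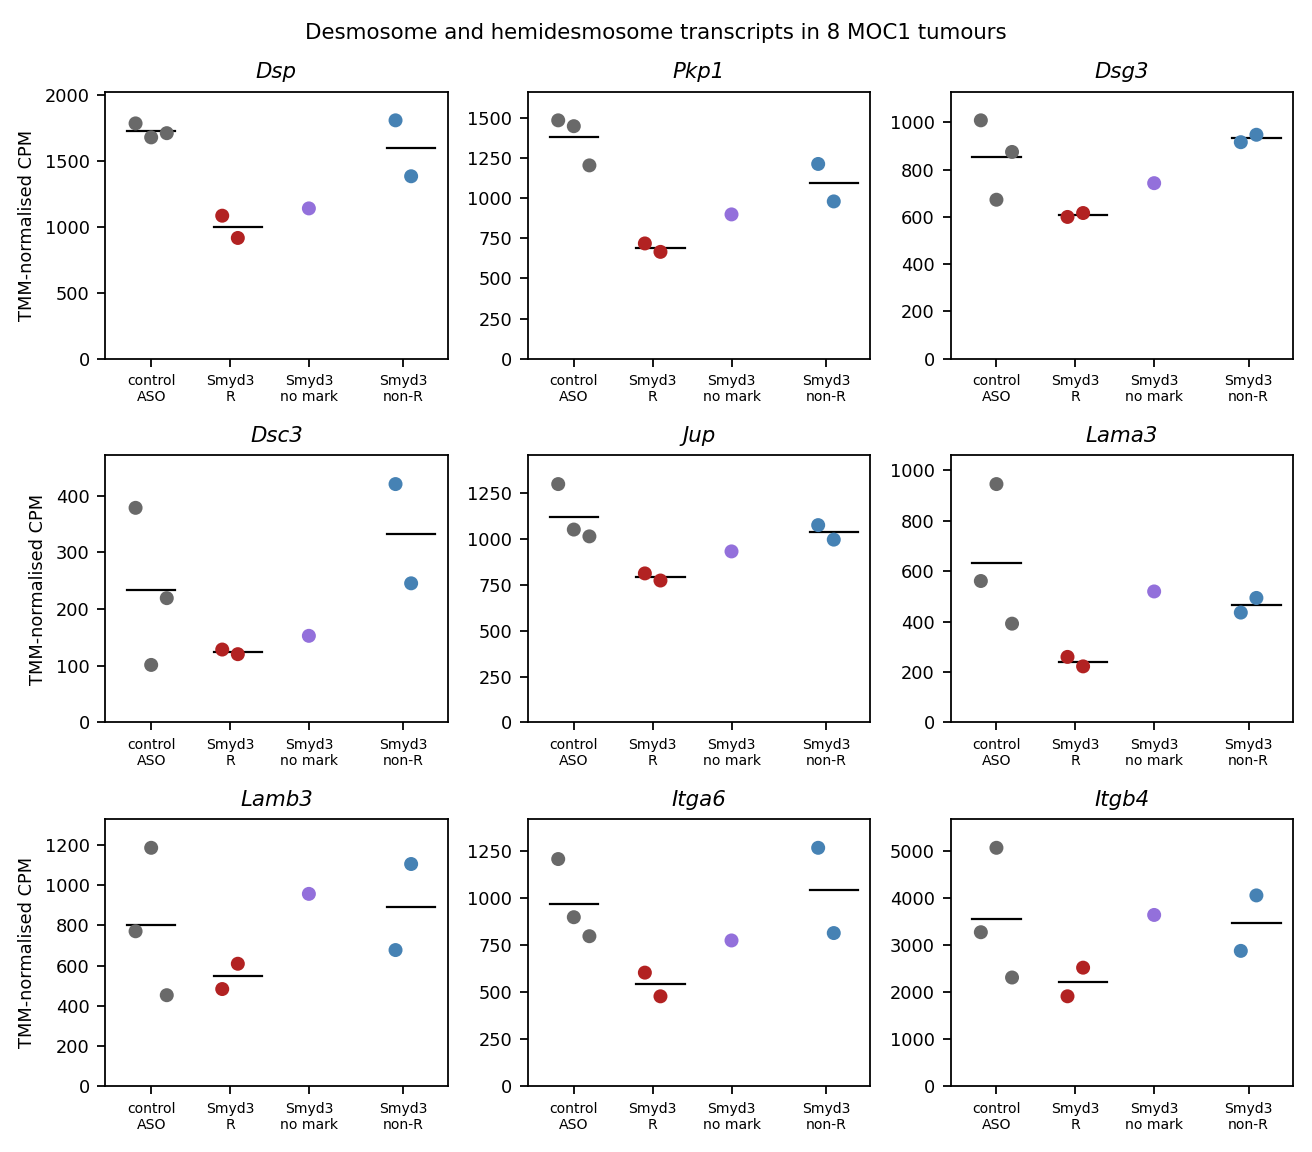
TMM-normalised CPM of the 9 members in each tumour (points; horizontal lines are group means; each vertical axis starts at 0) for control ASO, Smyd3 ASO responder (R), unmarked and non-responder (non-R) tumours. The 2 responder points lie below both non-responder points in all 9 panels, while the controls are spread widely for Dsc3, Lama3, Lamb3 and Itgb4.

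The 2 desmosomal cadherins differed from each other in spread. Desmoglein 3, the pemphigus vulgaris antigen of basal and lower spinous cells, is encoded by Dsg3 (chr18:20510274-20547459, plus strand). Dsg3 stood at 1008, 672 and 875 CPM in the controls, 600 and 616 in the responders, 743 in the unmarked tumour and 916 and 947 in the non-responders. The responders were below all 3 controls, of which control 2 came nearest. Desmocollin 3, its usual partner in basal cells, is encoded by Dsc3 (chr18:19960930-20002351, minus strand). Dsc3 stood at 379, 102 and 219 CPM in the controls, 129 and 121 in the responders, 153 in the unmarked tumour and 421 and 246 in the non-responders. The lowest of the 8 values was therefore a control, and the highest was non-responder 1. These 2 tumours also had the lowest and the highest summed level of 15 terminal keratinocyte differentiation genes, 293 CPM in control 2 and 1824 CPM in non-responder 1. The part of keratinocyte maturation in the Dsc3 values was not tested.

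The integrin subunits showed different orders of tumours. Integrin α6, encoded by Itga6 (chr2:71745616-71858416, plus strand), stood at 1205, 896 and 796 CPM in the controls, 602 and 477 in the responders, 773 in the unmarked tumour and 1264 and 812 in the non-responders. Its expected counts were fractional in all 8 libraries, since some reads fitted more than 1 gene. Integrin β4, whose long cytoplasmic tail binds plectin, is encoded by Itgb4 (chr11:115974709-116008412, plus strand). Itgb4 stood at 3273, 5067 and 2310 CPM in the controls, 1911 and 2520 in the responders, 3640 in the unmarked tumour and 2876 and 4055 in the non-responders. Control 2 was the highest tumour for Itgb4, and responder 3 was above control 3, whereas for Itga6 both responders were below the other 6 tumours.

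The laminin-332 chains, like Itgb4, were highest in control 2. The α3 chain is encoded by Lama3 (chr18:12333819-12583013, plus strand), which stood at 561, 945 and 392 CPM in the controls, 260 and 222 in the responders, 519 in the unmarked tumour and 436 and 494 in the non-responders. Both responders were below the other 6 tumours, at 41.1% and 35.2% of the control mean. The β3 chain is encoded by Lamb3 (chr1:193207699-193343878, plus strand), which stood at 771, 1187 and 453 CPM in the controls, 484 and 610 in the responders, 957 in the unmarked tumour and 678 and 1106 in the non-responders. Control 3 was the lowest tumour for Lamb3, below both responders. Genes that overlap Lamb3 on the map held at most 185 reads, for Hsd11b1, against at least 10768 for Lamb3. Control 2, highest for Lama3, Lamb3 and Itgb4, also had the highest summed fibroblast markers, 11675 CPM against 6540 and 7277 in the other controls. It had the highest endothelial sum as well, 527 CPM against 300.0 and 441. The part of stromal cells in its values was not tested.

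Responders and non-responders received the same agents and differ in the response mark. All 9 members were lower in both responders than in both non-responders, a separation without overlap in this direction that 18.9% of the 16911 tested genes showed. It was present for all 9 members under each of the 5 library scalings used, including one in which a list of 25 epithelial genes set the scale, where the background was 11.2%. The responder mean was 37.4% of the non-responder mean for Dsc3, 51.9% for Lama3, 52% for Itga6, 62.7% for Dsp, 63.1% for Pkp1 and 76.5% for Jup. The log2 fold change was −0.67 (SE 0.18) for Dsp, −0.66 (SE 0.18) for Pkp1, −0.62 (SE 0.20) for Dsg3, −1.42 (SE 0.56) for Dsc3 and −0.39 (SE 0.17) for Jup. For the hemidesmosome members it was −0.95 (SE 0.37) for Lama3, −0.71 (SE 0.44) for Lamb3, −0.94 (SE 0.29) for Itga6 and −0.65 (SE 0.38) for Itgb4. The median over the members was −0.67, against 0.01 over all tested genes, of which 48.4% were below 0. With 2 tumours a group, the edgeR quasi-likelihood test called 0 of the 9 members at 5% FDR (0% of all genes), and the adjusted p of Dsp was 0.505. At an unadjusted p under 0.05, 6 of the 9 were lower, against 3.75% of all genes. limma voom called 0 members, whereas DESeq2 called 2, Dsp (FDR 0.0448) and Pkp1 (FDR 0.0496), with 0.414% of its genes called lower. In bulk tissue, fewer cells of a type and less RNA per cell cannot be told apart. Beside these values, the epithelial reference sum was 21047 and 17128 CPM in the responders and 32608 and 20758 in the non-responders. Most of each sum came from 2 of the 25 genes. These were Krt5 (7803 and 6771 CPM against 13925 and 7389) and Krt14 (8738 and 6756 against 14065 and 9054). Over the 25 genes the median log2 fold change was −0.09, with 17 below 0 and 8 above. The muscle sum was 2269 and 10894 CPM in the responders against 656 and 964. The 15 terminal keratinocyte differentiation genes were all below 0 in this comparison (median −1.43, 12 without overlap), with sums of 480 and 506 CPM in the responders against 1824 and 820. The part of muscle RNA and of keratinocyte maturation in the difference was not tested.

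**Figure D2:**
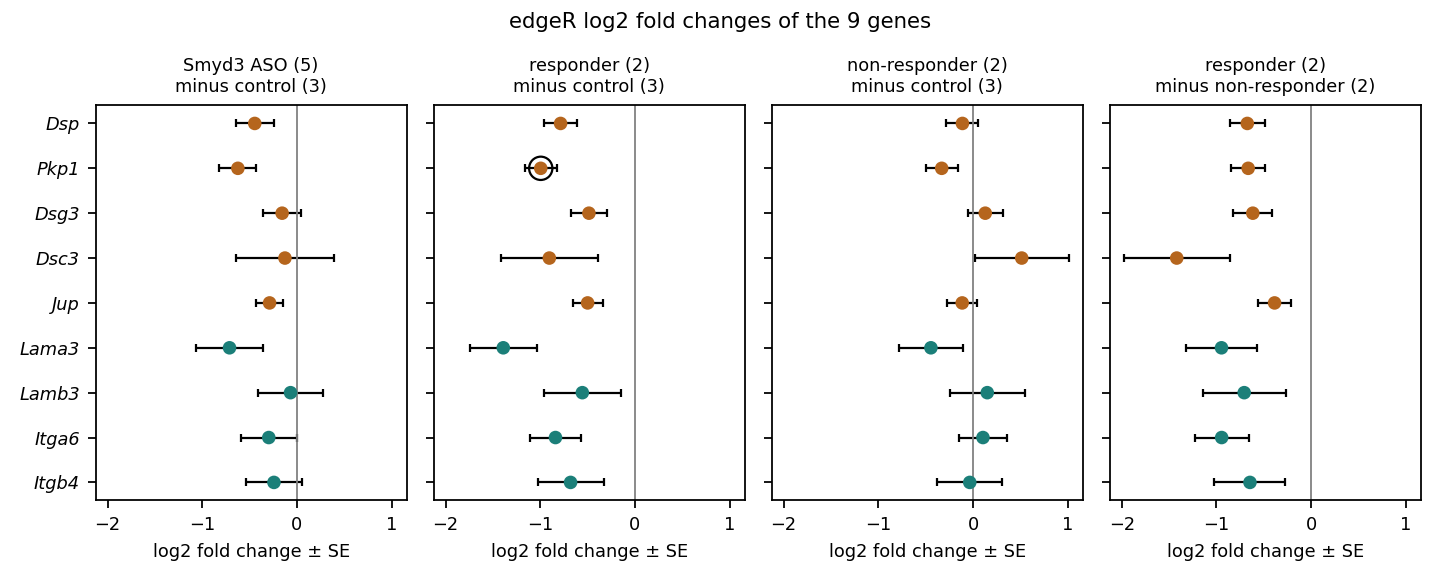
log2 fold change (points; bars are ± 1 SE from the edgeR fit) of each member in the 4 comparisons, with 0 marking no difference; brown points are desmosome and green points hemidesmosome members, and the circle marks Pkp1, which passed the edgeR test in responders against controls. All 9 points lie below 0 for responders against non-responders and for responders against controls, and those for non-responders against controls lie on both sides of 0.

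The tumour without a response mark can only be placed by its values. It lay above both responders for all 9 members, as it did for 31.5% of all genes. For Dsp, Pkp1, Dsg3, Dsc3, Jup and Itga6 it also lay below both non-responders, and so between the marked groups. This order, looked at after the values were seen, held for 6 of the 9 members and for 5.91% of all genes. For Lama3 it exceeded both non-responders, at 519 CPM, and for Lamb3 and Itgb4 it lay between them. A single tumour allows no test of its place.

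Responders were next set against the control arm, which asks how the tumours that responded under Smyd3 ASOs differ from those given control ASOs. Pkp1 was lower in responders at a log2 fold change of −1.0 (SE 0.17), or 50.2% of the control mean, and was the 1 member of 9 that passed the edgeR test (FDR 0.0423). In this comparison 1.66% of all genes passed in either direction and 0.272% passed as lower. Dsp (−0.79, SE 0.17, FDR 0.0834) and Lama3 (−1.39, SE 0.35, FDR 0.116) came next and did not pass. All 9 members were below 0, against 49.6% of all genes. The remaining log2 fold changes were −0.50 for Jup, −0.84 for Itga6, −0.49 for Dsg3, −0.90 for Dsc3, −0.56 for Lamb3 and −0.68 for Itgb4. Responders and controls did not overlap for 6 of the 9 members, against 17% of all genes in this direction. The 3 that overlapped were Dsc3, through control 2, and Lamb3 and Itgb4, through control 3. In 6 of the 9 members both responders were also below all other 6 tumours, against 6.69% of all genes. The call for Pkp1 was lost without any 1 of 7 tumours, all but the unmarked one: the adjusted p was 0.165 without control 1, 0.0827 without control 2, 0.0949 without control 3, 0.123 without responder 1, 0.365 without responder 3, 0.0509 without non-responder 1 and 0.0503 without non-responder 2. Its log2 fold change stayed between −1.10 and −0.94 in these fits. The call was also lost when the epithelial list set the scale (log2 fold change −0.88, FDR 0.205) or when only the 2 groups were fitted (FDR 0.051), and DESeq2 called 5 members, with 2.35% of its genes called lower.

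Non-responders against the same controls gave another picture, with both comparisons sharing their 3 control tumours. The edgeR test called 0 of the 9 members (0% of all genes), 0 reached an unadjusted p under 0.05 (9.24% of all genes did), and DESeq2 (2.13% of its genes) and limma voom called 0 members. The log2 fold change was −0.11 (SE 0.17) for Dsp, where it was −0.79 in responders. It was −0.33 (SE 0.17) for Pkp1, −0.11 for Jup, 0.13 for Dsg3 and 0.51 (SE 0.50) for Dsc3. For the hemidesmosome members it was −0.44 (SE 0.34) for Lama3, 0.15 for Lamb3, 0.10 (SE 0.26) for Itga6 and −0.03 for Itgb4. The non-responder mean was 92.5% of the control mean for Dsp and 79.5% for Pkp1, and 5 of the 9 members were below 0, against 48.9% of all genes. The sign of 6 of these small values turned when 1 tumour was left out.

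The treatment arms as a whole were compared last, 5 tumours against 3. All 9 members had a mean below control, against 48.2% of all genes, but Dsc3 turned to 0.069 when the epithelial list set the scale. None passed the edgeR test (0 of 9, with 0% of all genes called), 1 of 9 was lower at an unadjusted p under 0.05 (Pkp1, against 7% of all genes), and DESeq2 (6.26% of its genes) and limma voom called 0 members. The log2 fold change was −0.62 (SE 0.20, FDR 0.196) for Pkp1, −0.71 (SE 0.35, FDR 0.377) for Lama3 and −0.45 (SE 0.20, FDR 0.336) for Dsp. It was between −0.30 and −0.07 for Itga6, Jup, Itgb4, Dsg3, Dsc3 and Lamb3. The median over the members was −0.29. The arms overlapped for all 9 members, whereas 5.14% of all genes were lower in the Smyd3 ASO arm without overlap. Without control 2 the value turned to 0.33 for Lamb3 and 0.10 for Itgb4, and without control 1 it turned to 0.41 for Dsc3. It also turned for Dsc3 without responder 1 (0.0019) or responder 3 (0.014) and for Lamb3 without responder 1 (0.048).

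Ratios within a tumour do not depend on how libraries are scaled, and 6 pairs of partner genes were compared between the arms by exact permutation of the 8 tumours, two-sided, with adjustment over the 6 pairs, of which 5 are reported. The design allows no p below 0.0357. Lama3 stood at 0.447, 0.490 and 0.532 times Lamb3 per kilobase in the controls. It stood at 0.331 and 0.225 in responders 1 and 3, at 0.334 in the unmarked tumour and at 0.395 and 0.275 in the non-responders. Every Smyd3 ASO tumour was below every control. The mean log2 ratio was 0.67 lower in the Smyd3 ASO arm (−1.01 ± 0.31, n = 5, against −0.33 ± 0.12, n = 3, SD), with an exact permutation p of 0.0357 and an adjusted p of 0.214. It did not pass after adjustment. A single ratio at the smallest possible p could not pass adjustment over 6 pairs, so the adjusted value decides nothing here.

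**Figure D3:**
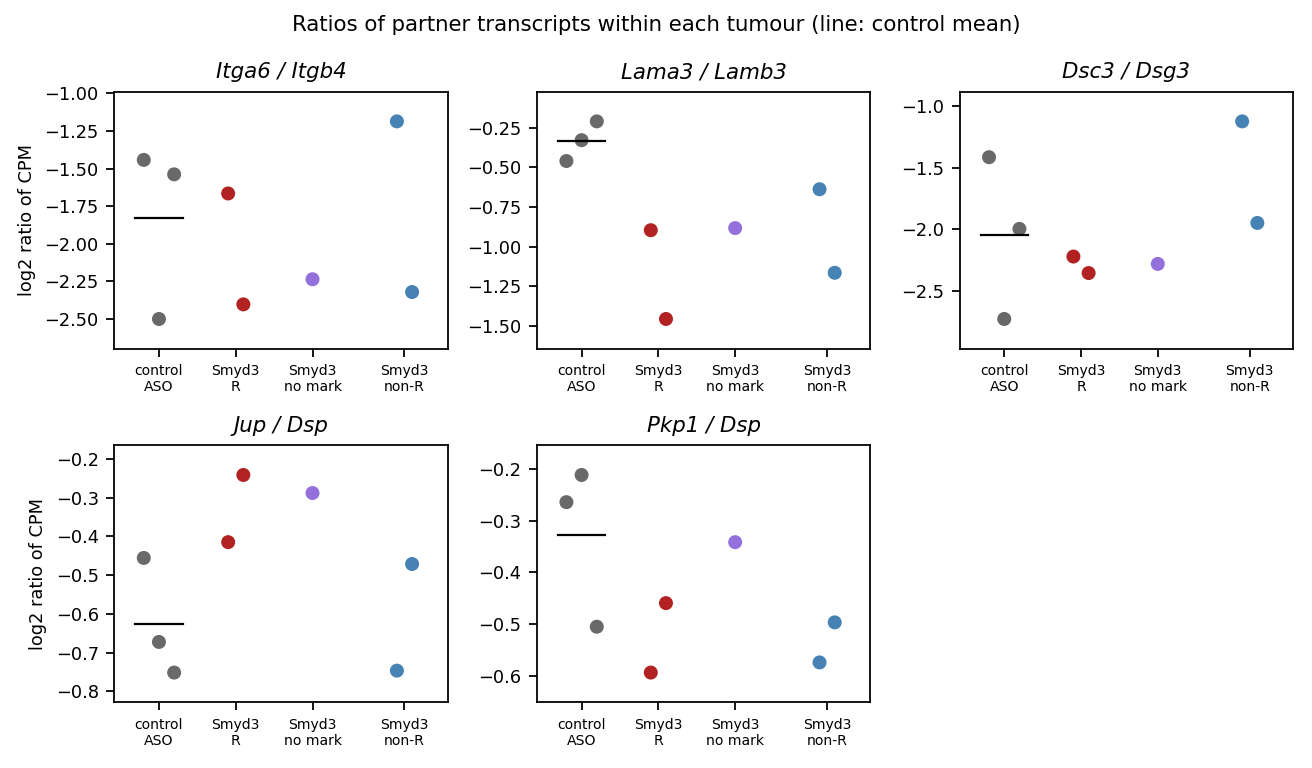
log2 ratio of CPM between 2 partner genes within each tumour (points) for 5 pairs, by arm, with responders, the unmarked tumour and non-responders in separate colours and a line at the control mean; the vertical axes differ between panels. For Lama3 to Lamb3 all 5 Smyd3 ASO points lie below the 3 control points, and in the other 4 pairs the arms overlap.

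The other 4 ratios overlapped between the arms. Itga6 to Itgb4 differed by −0.14 in mean log2 ratio (exact permutation p = 0.821), with single tumours from 0.138 in control 2 to 0.342 in non-responder 1 as a linear ratio per kilobase. Dsc3 to Dsg3 differed by 0.06 (exact permutation p = 0.893), and both ends of its range, 0.195 and 0.593, were again control 2 and non-responder 1. Jup to Dsp differed by 0.19 (exact permutation p = 0.25). Pkp1 to Dsp differed by −0.17 (exact permutation p = 0.143), which leaves these 2 plaque partners between 1.27 and 1.66 to 1 in all 8 tumours. Across the 2 junction types the balance was wider. Itgb4 was 38.4 times Dsc3 per kilobase in control 2 and 5.27 to 18.3 times in the other 7 tumours.

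The rest of the desmosome was described from a list of 13 further genes. In responders against non-responders 12 of the 13 were below 0 (48.4% of all genes were; median −0.69), 7 of them without overlap (18.9% of all genes). The edgeR test called 0, with 6 lower at an unadjusted p under 0.05 (3.75% of all genes). DESeq2 called 2 as lower (0.414% of its genes) and limma voom 0. Dsg1a, a desmoglein of the upper epidermal layers, stood at 1.83 and 0.399 CPM in the responders, at 13.5 and 15 in the non-responders and at 0.312 to 2.24 in the controls. Dsc1, the desmocollin of the same layers, stood at 1.34 and 0.181 CPM in the responders, 24.3 and 8.32 in the non-responders and 0.223 to 3.99 in the controls. The non-responders were thus above all other tumours for both genes. Reads of Dsg1a were partly shared with its near-identical copies, so its value is uncertain. Non-responders also differed from each other: Dsg4, the desmoglein of the hair shaft, stood at 0.0921 CPM in the first and 8.36 in the second, whose 8 hair follicle markers summed to 584 CPM against 81.3 to 211 in the other tumours. The part of hair follicle in these values was not tested. In responders against controls 11 of the 13 were below 0 (49.6% of all genes) and 0 passed the edgeR test. At an unadjusted p under 0.05, 1 was lower (6.99% of all genes). DESeq2 called 1 as lower (2.35% of its genes) and limma voom 0. Pkp3, a plakophilin, was at −0.59 (FDR 0.117) and Perp, a membrane protein of desmosomes, at −0.36 (FDR 0.373). Between the arms 7 of the 13 were below 0 (48.2% of all genes) and 0 passed (2 lower at an unadjusted p under 0.05, against 7% of all genes, 0 by DESeq2 or limma voom), with Pkp2, the plakophilin of simple epithelia and heart, at −0.86 (FDR 0.283) and Pkp3 at −0.34 (FDR 0.304). In non-responders against controls 5 of the 13 were below 0 (48.9% of all genes) and 0 passed the edgeR test. In either direction, 3 of the 13 reached an unadjusted p under 0.05 (9.24% of all genes), all of them higher. DESeq2 called 2 in either direction (2.13% of its genes), both higher, and limma voom called 0.

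A list of 7 further hemidesmosome and anchoring genes was set beside the members in responders against controls. All 7 (among them Col17a1, Dst, Plec, Cd151, Itga3 and Col7a1) were lower in both responders than in all 3 controls, as were 17% of all genes. The edgeR test called 1 of them as lower (0.272% of all genes), and 6 were lower at an unadjusted p under 0.05 (6.99% of all genes). DESeq2 called 4 as lower (2.35% of its genes) and limma voom 0. Plec, which encodes plectin, the linker from integrin β4 to keratin, stood at 1129, 1066 and 862 CPM in the controls, 471 and 560 in the responders, 888 in the unmarked tumour and 790 and 745 in the non-responders. Its log2 fold change in responders against controls was −0.98 (SE 0.17, FDR 0.0447). Among 8 further laminin chains, Lama5, the α chain of laminin-511, also passed, at −1.27 (SE 0.21, FDR 0.0388). Lama5 stood at 532, 379 and 371 CPM in the controls, 200.3 and 155 in the responders, 252 in the unmarked tumour and 280 and 289 in the non-responders. All 5 Smyd3 ASO tumours were below all 3 controls for Lama5, with an arm difference of −0.86 (FDR 0.130). Like the call for Pkp1, those for Plec and Lama5 were lost without any 1 of 7 tumours, all but the unmarked one, with adjusted p of 0.0689 to 0.216 for Plec and 0.0593 to 0.297 for Lama5. When the epithelial list set the scale, the adjusted p of Plec was 0.214, and with limma voom it was 0.0523. With only the 2 groups fitted, it was 0.07 for Plec and 0.0707 for Lama5.

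**Figure D4:**
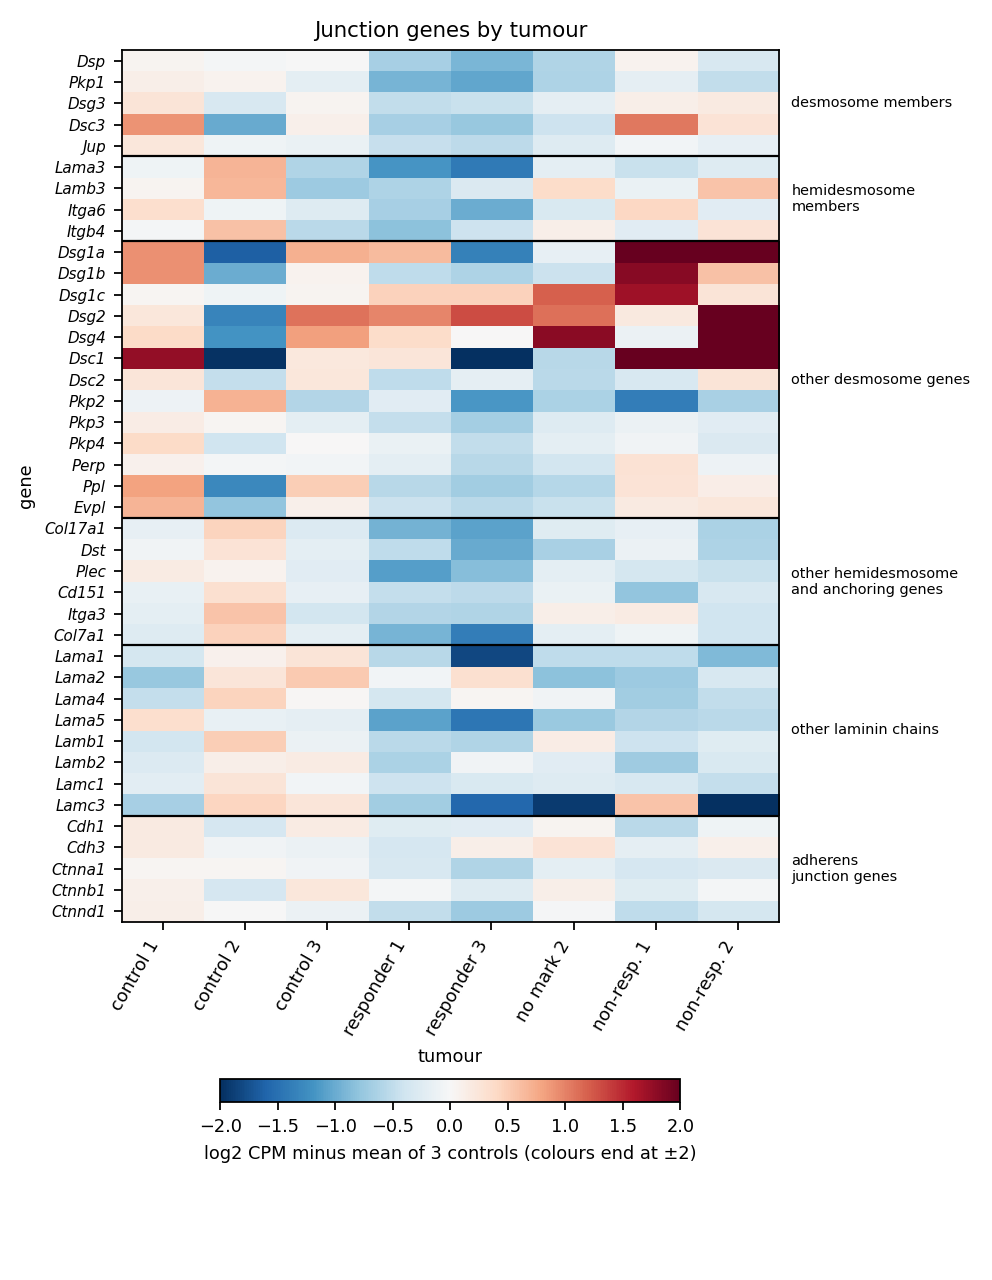
log2 CPM of the 9 members and of the other junction genes in each tumour, as the difference from the mean of the 3 controls (blue lower, red higher, colours ending at ± 2). The 2 responder columns are blue for all 9 members, and the non-responder columns are red for Dsg1a and Dsc1, which have few reads.

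The same lists were counted in the other comparisons. In responders against non-responders 6 of the 7 hemidesmosome genes were below 0 (48.4% of all genes) and 0 passed the edgeR test (2 lower at an unadjusted p under 0.05, against 3.75% of all genes, 0 by DESeq2 or limma voom), with Col7a1, the anchoring fibril collagen, at −0.91 (FDR 0.537) and Plec at −0.57 (FDR 0.537). The further laminin chains were divided, 4 below and 4 above 0 with 0 passing (1 lower at an unadjusted p under 0.05, 0 by DESeq2 or limma voom). The 2 with the smallest p were Lama5 at −0.68 (FDR 0.540) and Lama4, a vascular chain, at 0.45 (FDR 0.689). Between the arms all 7 and all 8 genes of the 2 lists were below 0 (48.2% of all genes) and 0 passed the edgeR test. At an unadjusted p under 0.05, 4 and 3 were lower (7% of all genes). DESeq2 called 1 as lower, Lama5 (2.29% of its genes were called lower), and limma voom 0. Examples were Dst, which encodes a plakin of hemidesmosomes, at −0.56 (FDR 0.218) and Lamc1, the common γ chain, at −0.37 (FDR 0.198). In non-responders against controls all 7 and all 8 were again below 0 (48.9% of all genes), with medians of −0.41 and −0.55, and 0 passed (2 and 3 lower at an unadjusted p under 0.05, against 4.14% of all genes, 0 by DESeq2 or limma voom), with the tetraspanin Cd151 at −0.56 (FDR 0.496), Plec at −0.41 (FDR 0.528), Lama5 at −0.59 (FDR 0.466) and Lamc1 at −0.41 (FDR 0.519). Of 5 adherens junction genes, the cell contacts that anchor actin, 0 passed the edgeR test or limma voom in any of the 4 comparisons. DESeq2 called 2 as lower in responders against controls (2.35% of its genes) and 1 between the arms (2.29% of its genes). At an unadjusted p under 0.05, 2 were lower between the arms (7% of all genes) and 0 in responders against non-responders (3.75%). In responders against controls 2 were lower (6.99%), and in non-responders against controls 1 was (4.14%). Ctnna1 and Ctnnd1, which encode α-catenin and p120-catenin, were at −0.45 (FDR 0.172) and −0.60 (FDR 0.107) in responders against controls and at −0.14 and −0.18 in responders against non-responders.

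Markers of the cells around the tumour cells were set beside the members. All 25 epithelial reference genes were detected, among them Krt5 at 6771 to 14496 CPM and Krt14 at 6756 to 14065 CPM. The list is of epithelial genes in general, so its detection does not check the squamous label. The desmosome members summed to 4947 to 5950 CPM in the controls, 3341 and 3089 in the responders, 3863 in the unmarked tumour and 5428 and 4549 in the non-responders. The hemidesmosome members summed to 3951 to 8095 CPM in the controls, 3257 and 3828 in the responders, 5890 in the unmarked tumour and 5254 and 6467 in the non-responders. In responders against non-responders, 17 of the 25 epithelial reference genes were below 0 (median −0.09), 6 were lower without overlap (18.9% of all genes) and 3 were higher without overlap (20.3%). In responders against controls, 16 of the 25 were below 0 (median −0.17). The genes of this list moved apart. In responders against non-responders Trp63 (−0.84), Krt14 (−0.58) and Krt5 (−0.55) were among the 17 below 0. Krt18 (1.21), Krt8 (1.02) and Cldn7 (0.96) were among the 8 above. Krt5 and Krt14 were at −0.64 and −0.66 in responders against controls, where 9 of the 25 were above 0. The medians of the desmosome members in these comparisons were −0.66 and −0.79, and those of the hemidesmosome members −0.83 and −0.76. Epcam, an epithelial surface protein, stood at 480 and 307 CPM in the responders and 189 and 324 in the non-responders. Trp63, which encodes p63, stood at 352 and 297 against 747 and 417 and was lower in both responders. Schwann cells and endothelium can also express Itga6 and laminins, and their marker sums overlapped between the arms (98.6 to 120 against 88.3 to 150.0 CPM for 8 Schwann cell genes, 300.0 to 527 against 204 to 379 CPM for 8 endothelial genes). By response they did not overlap: Schwann cell genes summed to 136 and 150.0 CPM in the responders and 109 and 88.3 in the non-responders, and endothelial genes to 320 and 379 against 204 and 281. Of the 8 Schwann cell genes, 7 were below 0 between the arms and 1, Sox10, was above. In responders against non-responders 5 were above 0 (3 without overlap, 20.3% of all genes) and 3 below (2 without overlap, 18.9%). Ngfr, among those below, stood at 27.3 and 32.3 CPM in the responders and 50.4 and 41.0 in the non-responders. Sox10, the defining Schwann lineage factor, stood at 63.2 and 70.3 CPM in the responders and 13.4 in the unmarked tumour. It stood at 5.71 and 3.70 in the non-responders and 0.166 to 4.08 in the controls. Sox10 was the largest part of the Schwann cell sum in both responders. Fibroblast markers summed to 6540 to 11675 CPM in the controls and 4248 to 5807 in the Smyd3 ASO arm, without overlap. Of the 8 fibroblast genes, 4 were above 0 between the arms (Pdgfra, Lum, Dcn and Fap, at 0.17 to 0.43) and 4 below, among them the collagen genes Col1a1 (−1.0), Col1a2 (−0.88) and Col3a1 (−0.72), on the log2 scale. The part of any of these cells in the values of the members was not tested.

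**Figure D5:**
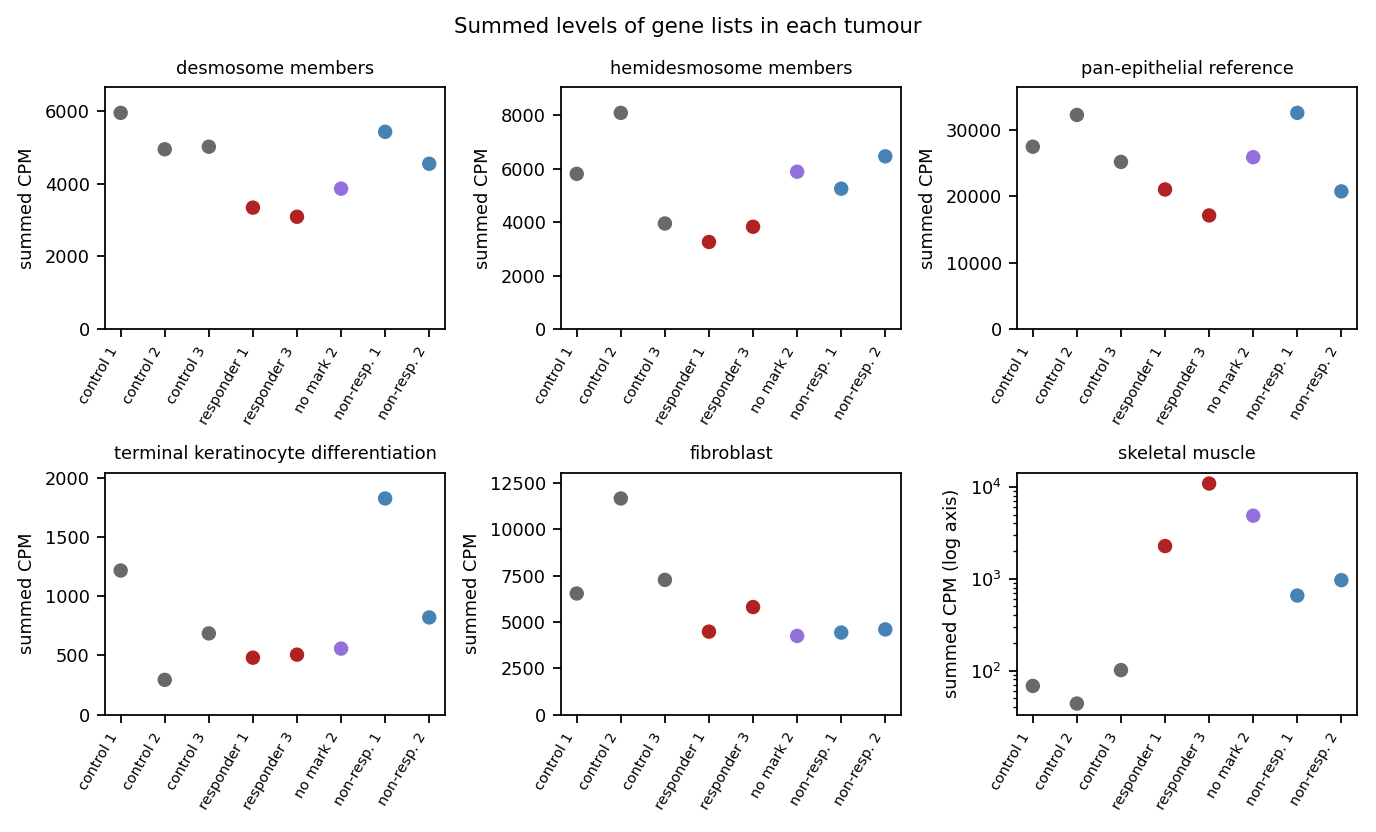
Summed TMM-normalised CPM in each tumour of the desmosome members, the hemidesmosome members, the epithelial reference, terminal keratinocyte differentiation, fibroblast and skeletal muscle lists (axes start at 0, except the log axis for muscle). Most of the epithelial reference sum is Krt5 and Krt14. Muscle sums of 43.7 to 101 CPM in controls and 656 to 10894 CPM in Smyd3 ASO tumours stand apart, and the desmosome sums of the 2 responders, 3341 and 3089, are the lowest of the 8.

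The genes whose pattern over the 8 tumours was most like the members were ranked among 10810 other genes by Pearson's r with the mean standardised log2 CPM. For the 5 desmosome members these were Maml3 (r = 0.983, Spearman's rho = 0.976), Safb2 (0.982, 1), Zbtb17 (0.981, 1), Tmem131 (0.981, 0.952) and Chd4 (0.979, 0.976). For the 4 hemidesmosome members they were Flrt3 (r = 0.970, rho = 0.810), Arhgap23 (0.968, 0.952), Dock5 (0.958, 0.905), Smad7 (0.944, 0.857) and Prrc2a (0.941, 0.976). The points share library and scaling, and the 5 on top of so many genes were picked for a high r, so these values are a description. Safb2 shows the size of such a pattern: it stood at 125, 107 and 113 CPM in the controls, 96 and 88.0 in the responders, 98.7 in the unmarked tumour and 125 and 110.4 in the non-responders. Flrt3 had its highest value, 154 CPM, in control 2, as did Lama3, Lamb3 and Itgb4.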

How the data were processed

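Bulk polyA RNA from 8 MOC1 tumours was sequenced from stranded mRNA libraries, per the labels' protocols. The authors deposited RSEM expected counts per gene, not scaled to library size. Per the submitters' processing notes, RSEM 1.3.0, STAR 2.7.0f, cutadapt 1.18 and bcl2fastq 2.17 were used with mm10, and the annotation is not given in the sources used here. All 55450 identifiers matched GENCODE M21, which gave coordinates and exon lengths (merged over transcripts).

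Expected counts were rounded. Genes with at least 0.424 CPM (10 reads in the median library) in 2 libraries and 15 reads in all were kept (16911 genes, at least 99.87% of reads per library). R 4.3.3 with edgeR 4.0.16 was used: TMM scaling, robust quasi-likelihood fits, two-sided tests, Benjamini-Hochberg FDR of 0.05 over all kept genes, SE from the F statistic. The arm comparison had arm as its only term (5 against 3). The response comparisons came from 1 model of 4 groups over all 8 libraries, sharing 1 spread. The 6 ratios were tested by exact permutation over 56 splits, and 1 of them is not reported here. At 22103853 to 27258700 reads per library, the members' counting error was at most 2.1%, counting error only.

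The members and the gene lists were chosen with earlier results of these data known, so counts over them are descriptions. All members and Smyd3 are named. From each list of other junction genes, up to 4 genes that passed are named, otherwise the 2 with the smallest p. Marker lists are given by summed level with their defining genes. The most alike genes are the 5 with the highest r among genes at an average log2 CPM of at least 3. The edgeR fits were also run on counts simulated from their own estimate of the spread, with known changes added. Such counts cannot check whether that estimate holds for these tumours, and the outcome is not reported here. Alternatives were DESeq2 1.42.0, limma 3.58.1 voom, other scalings and filters, leaving out each tumour, and a replicate block.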

Additional observations from a re-analysis of the deposited data

How the results depend on the processing

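No member was called in the arm comparison, in responders against non-responders or in non-responders against controls under any other scaling, filter, limma voom or a tumour left out. DESeq2 called 2 members in responders against non-responders and 5 in responders against controls. In responders against controls, 1 member was called with limma voom, 0 with the epithelial list setting the scale, 2 without a count filter, 0 with only the 2 groups compared, and 0 to 1 with a tumour left out. Counts over all genes moved more. Against 0 in the arm comparison, DESeq2 called 1053 genes, the fit without a filter 52, the average of both marked groups 25, and fits without a tumour 0 to 249. Against 0 in responders against non-responders, the counts were 225 with DESeq2, 7 without a filter and 0 to 22 without a tumour. Against 280 in responders against controls, they were 1153 with DESeq2, 135 with limma voom, 432 with the epithelial scale, 499 without a filter, 171 with the 2 groups alone and 0 to 298 without a tumour (0 without control 1). Against 0 in non-responders against controls, they were 339 with DESeq2, 7 with the epithelial scale and 32 without a filter. The epithelial scale moved the median of all genes by 0.13 (log2) in responders against controls and the share of higher calls from 83.6% to 96.8%. The cause was not tested.

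With the replicate block, over the 6 numbered tumours, which hold no non-responder, 2 members were called, Pkp1 (FDR 0.0423) and Lama3 (FDR 0.0351), and 249 genes in all (0.213% lower). Without the block the same 6 tumours gave 1 member, Dsp (FDR 0.0436), and 285 genes. Same-numbered tumours did not deviate together (r of −0.034, 0.00015 and 0.076), so the numbers were not taken as pairs. Not every tumour correlated best with its own number.

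Values near 0 changed sign. With a tumour left out, the arm difference (log2) ranged from −0.53 to 0.41 for Dsc3, −0.37 to 0.33 for Lamb3 and −0.49 to 0.10 for Itgb4. With the epithelial scale, that of Dsc3 was 0.069. In non-responders against controls, the ranges with a tumour left out were −0.17 to 0.0046 for the members' median, −0.32 to 0.066 for Dsp, −0.015 to 0.27 for Dsg3, −0.20 to 0.0046 for Jup, −0.25 to 0.54 for Lamb3, −0.25 to 0.39 for Itga6, −0.31 to 0.31 for Itgb4 and −0.59 to 5.84 for Dsg4. The median and Itgb4 were both 0.016 with limma voom and 0.018 with library size only, and the median and Dsp were both 0.0014 with the epithelial scale. Log2 ratios ranged from −0.47 to 0.057 for Itga6 to Itgb4 and from −0.28 to 0.38 for Dsc3 to Dsg3 with a tumour left out.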
